A study of Drosophila melanogaster with 15 samples.

Results

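The transcripts that rose and fell when L(3)mbt was depleted from cultured ovarian somatic cells (OSCs) were described gene group by gene group. OSCs are a line derived from the somatic cells of the *Drosophila* ovary and correspond to follicle cells, the epithelium around the germline cyst. The libraries were those of OSCs given siRNA against *l(3)mbt* for 48 h (L(3)mbt KD, n = 3) and of OSCs given siRNA against EGFP for the same time (control, n = 3), which are 6 of the 9 RNA-seq libraries and of the 15 samples of the series. OSCs given siRNA against *lint-O*, a gene that encodes an L(3)mbt partner (Lint-O KD, n = 3), were compared to show where the L(3)mbt KD differed. Their libraries also entered the filter, the scaling and the estimate of spread behind all tests. All libraries came from 1 cultured line under transient RNAi, from poly-A selected RNA, and the study states that the *l(3)mbt* gene of OSCs carries a transposon insertion. Of 16727 genes listed, 8726 had enough reads to be tested with edgeR, and a gene was called upregulated or downregulated at an adjusted p (Benjamini-Hochberg) under 0.01, whatever the size of the change. CPM stands for the count of a gene per 1000000 counts of the scaled library total. Whether the counting used strand is not given, so that reads of genes with overlapping exons cannot be told apart, and such overlaps are named with the gene. The labels do not say whether the replicates were separate cultures, so that p-values measure only the spread between these libraries.

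L(3)mbt is a chromatin protein with MBT repeats, which bind methylated lysines in histone tails. It belongs to repressive complexes, among them LINT and dREAM, and flies that lack it develop brain tumors in which germline genes are ectopically expressed. Follicle cells normally keep germline genes silent, while they build the eggshell and the basement membrane around the egg chamber.

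The *l(3)mbt* transcript, on 3R, was reduced and still had 72.3, 79.7 and 72.4 CPM in L(3)mbt KD, against 123, 139 and 141 CPM in control, without overlap (log2 fold change -0.85 ± 0.07 SE and edgeR adjusted p = 5.75e-10). Its exons overlap those of *CG14260* by 98 bases. Between 20755216 and 32274601 reads were counted on genes in these libraries. Control replicate 3 stood apart from the other control libraries (chi-square per degree of freedom 18.8 and 20.1, against 5.92 between replicates 1 and 2), and its share of reads outside annotated genes was 2.76%, against 7.97% and 8.45% in those and 2.93% to 4.14% in L(3)mbt KD. L(3)mbt KD replicate 3 stood apart in the same way (12.1 and 16.7, against 4.74 between its replicates 1 and 2), and without it 1815 genes were upregulated and 1458 downregulated. Without control replicate 3, 1818 genes were upregulated and 1596 downregulated. Of 12 follicle cell and OSC markers, 5 were upregulated and none downregulated, and their summed level was 3308 to 3615 CPM in control and 3761 to 3790 CPM in L(3)mbt KD. In a longer list of follicle cell identity genes, 7 of 21 tested were upregulated (33.3%) and 1 downregulated (4.76%, or 4 genes without control replicate 3). Its median log2 fold change was -0.03. Over all genes tested, 22.6% were upregulated and 15.9% downregulated. *tj*, the somatic gonad regulator, had 584, 607 and 398 CPM in control and 409, 421 and 509 CPM in L(3)mbt KD and was not called (edgeR adjusted p = 0.287). Germ cell markers summed to 77.3 to 80.8 CPM in control and 493 to 561 CPM in L(3)mbt KD. Fat body markers stayed under the floor of 3 counts in both (5 of 5), and hemocyte markers summed to 94.0 to 99.6 CPM in control and 114 to 119 CPM in L(3)mbt KD. The hemocyte markers did not move together. Of 6 listed, 4 were tested, 2 were upregulated and 1 was downregulated, *srp*, which lost its call in 3 of the alternative settings.

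Increases and decreases differed in size and in the genes they reached. The median log2 fold change was 1.24 among the 1973 upregulated genes (22.6% of genes tested) and -0.33 among the 1391 downregulated genes (15.9% of genes tested). At least 2-fold changes were seen in 1091 upregulated and 78 downregulated genes, and at least 8-fold changes in 401 and 4 genes, respectively. The upregulated genes were mostly low in control, with a median of 5.74 CPM, whereas the median was 67.4 CPM for downregulated genes and 37.4 CPM for all genes tested. Of the 1153 tested genes under 1 CPM in control, 53.3% were upregulated and 0.781% downregulated, and of the 600 tested genes above 300 CPM 6.5% and 24.7%. A gene this low in control can pass the filter on low counts through the knockdown libraries alone, so that shares among low genes, and those of gene groups with many low members, are in part set by the filter and are given as descriptions. All 3 control libraries had 0 counts for 20 of the upregulated genes, and 146 had at most 3 counts in every control library. Summed over genes, the upregulated genes gained 37176 CPM and the downregulated genes decreased by 50200.4 CPM. Scaled by library totals alone, 2235 genes were upregulated and 942 downregulated, and 70.3% of called genes were upregulated instead of 58.7%.

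**Figure D1:**
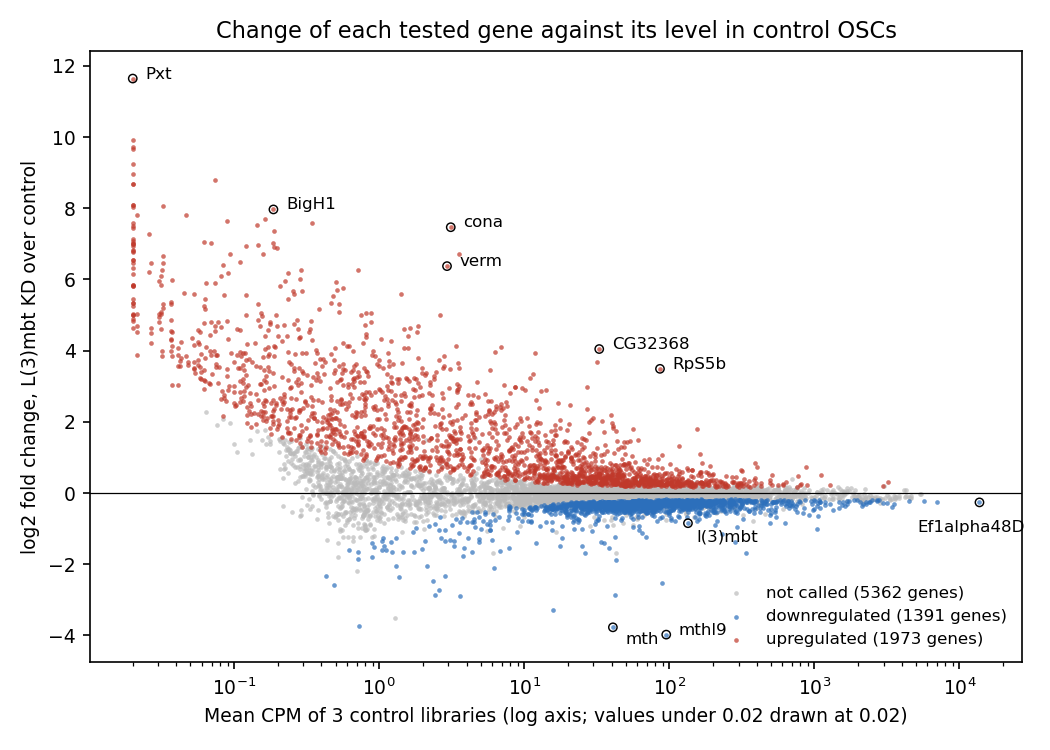
Each point is 1 of the 8726 genes tested, with its mean level in the 3 control libraries (CPM, log axis) against its log2 fold change in L(3)mbt KD over control. Upregulated genes (1973) reach large fold changes where the control level is low, and downregulated genes (1391) lie mostly close to 0 at higher levels. Fitted changes of genes with 0 counts in control depend on the prior count.

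Several germline genes outside the piRNA pathway rose, among others that were not called. Of 26 genes listed for germ cell identity and translational control, 21 were tested. Of these, 10 were upregulated (47.6%, against 22.6% of all genes tested), 11 were not called and none was downregulated (1 without control replicate 3). The upregulated genes included *nos*, which encodes a translational repressor, *bgcn* and *bam*, which act together in germ cell differentiation, *orb*, a cytoplasmic polyadenylation factor, and *zpg*, the germline gap junction protein. *nos* had 0.0455, 0 and 0.319 CPM in control and 22.6, 18.7 and 15.8 CPM in L(3)mbt KD, without overlap (log2 fold change 6.95, edgeR adjusted p = 5.47e-10), and shares 269 exon bases with *CG11779*. *bgcn* rose 7.03-fold, from 7.92 ± 0.129 to 55.7 ± 2 CPM (SD, n = 3 each), and *orb* 11.8-fold, from 0.406 ± 0.0975 to 4.97 ± 0.379 CPM. For *zpg* the increase was 28.7-fold, from 2, 1 and 4 counts in control to 92, 68 and 61 counts in L(3)mbt KD. *Rbp9*, an RNA-binding protein of the Hu family, rose 6.69-fold, *bam* 2.74-fold and *ovo*, a germline transcription factor, 2.04-fold. Exons of *Rbp9*, *bam* and *ovo* overlap those of a neighbour by 142, 224 and 25 bases. *Pxt*, a peroxidase needed in oogenesis, had 0 counts in every control library and 17.9, 17.1 and 14.8 CPM in L(3)mbt KD, at least 114-fold higher with the floor of 3 counts per library. Without genes under 10 counts in any library, only 5 of 16 genes were called, since low genes such as *nos* and *zpg* are then not tested. Upregulated genes made up 53.3% of all tested genes under 1 CPM in control, a level at which *nos*, *orb* and *zpg* lay. Of 17 genes of piRNA amplification and nuage, 7 were upregulated, with *vas* (105-fold, with 563 exon bases shared with a neighbour) and *tej* (24.2-fold) among them, and 3 were downregulated, while *krimp* (0.17) and *spn-E* (0.09) were not called (edgeR adjusted p = 0.0148 and 0.167).

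Some genes of meiotic chromosomes rose as well. Of 28 listed, 25 were tested and 12 were upregulated, among them 3 of the synaptonemal complex, and their summed level went from 448 to 465 CPM in control to 1177 to 1191 CPM in L(3)mbt KD. Most of the increase was that of *cona*, a protein of the central region of the complex, with 3.27, 2.68 and 3.39 CPM in control and 558, 562 and 553 CPM in L(3)mbt KD (177-fold, edgeR adjusted p = 8.33e-25). The 3 libraries of L(3)mbt KD were thus far above the control libraries for *cona*, which shares 47 exon bases with *Vha100-4*. *c(2)M*, of the lateral element, rose 5.7-fold from 4.35 ± 0.971 to 24.3 ± 0.73 CPM and *c(3)G*, the transverse filament, 2.91-fold from 11.4 ± 1.49 to 33 ± 3.47 CPM, and their exons overlap those of a neighbour by 140 and 22 bases. *hdm*, which acts in meiotic recombination, had 1.14, 0.828 and 1.5 CPM in control and 19.1, 17.8 and 18.6 CPM in L(3)mbt KD, a 15.4-fold increase without overlap. The gene listed as *CG32088* (*sunn*), needed for sister chromatid cohesion in meiosis, rose 7.75-fold from 9.61 ± 0.614 to 74.2 ± 4.72 CPM. The related RING-domain genes listed as *CG31053* (*nenya*), *CG2709* (*vilya*) and *CG12200* (*narya*), which act at meiotic breaks, rose 2.46-fold, 2.17-fold and 2.03-fold. The median log2 fold change over the 25 genes was 0.24, against -0.02 over all genes tested. Upregulated genes made up 48% of the 25, against 22.6% of all genes tested. Such a share was not particular to germline lists. Of 13 muscle genes tested, 8 were upregulated and 1 downregulated. Of 32 odorant and gustatory receptor genes tested, 15 were upregulated and 2 downregulated. One gene, *spn-D*, was downregulated (-0.45) and lost its call in 8 of the alternative settings.

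Genes whose products are stored in the egg also rose. Of 31 maternal and oocyte genes, 28 were tested, 15 were upregulated (53.6%) and 1 was downregulated (3.57%). Over all genes tested these shares were 22.6% and 15.9%, and 53.3% of those under 1 CPM in control were upregulated. The 1 decrease became 2 without control replicate 3 or L(3)mbt KD replicate 2. It became 0 with a minimum of 10 counts in every library and 3 at an adjusted p under 0.05. *swa*, which localizes *bcd* RNA, had 0.227, 0.0487 and 0.319 CPM in control and 25.2, 26.7 and 26 CPM in L(3)mbt KD (117-fold, edgeR adjusted p = 1.21e-17), and *tor*, the receptor kinase of terminal patterning, 0.546, 0.633 and 0.351 CPM and 25.5, 26.2 and 25.4 CPM (52-fold). Neither gene showed any overlap of the libraries. *gnu*, an activating subunit of the PNG kinase of the early embryo, rose 28.9-fold from 0.27 ± 0.199 to 7.24 ± 0.556 CPM. *plu*, its other activating subunit, had 1, 1 and 0 counts in control and 34, 7 and 20 counts in L(3)mbt KD, a ratio of 28.9 (95% interval 7.68 to 244) that covers counting error only. *exu*, another factor of *bcd* RNA localization, rose 6.7-fold from 4.07 ± 0.161 to 27.4 ± 2.6 CPM and shares 397 exon bases with *galla-1*. *trk*, of the terminal pathway, was the 1 gene that fell, from 1.3 ± 0.256 to 0.303 ± 0.123 CPM (log2 fold change -2.06), and shares 23 exon bases with a neighbour. *BigH1*, the linker histone of germ cells and early embryos, rose 250.5-fold, with 0.0909, 0.341 and 0.128 CPM in control and 49.7, 46.9 and 39.8 CPM in L(3)mbt KD. Only 9 of 24 eggshell and yolk genes were tested, and 5 of these were upregulated (55.6%), or 2 of 5 with a minimum of 10 counts in every library. They included *yl*, the yolk protein receptor of the oocyte, with 0, 0 and 3 counts in control and 102, 91 and 79 counts in L(3)mbt KD (ratio 86 (95% interval 29.1 to 419.7)), with 77 exon bases shared with a microRNA gene, and *Yp3*, a yolk protein (6.12-fold, from 0.542 ± 0.281 to 3.47 ± 0.264 CPM).

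**Figure D2:**
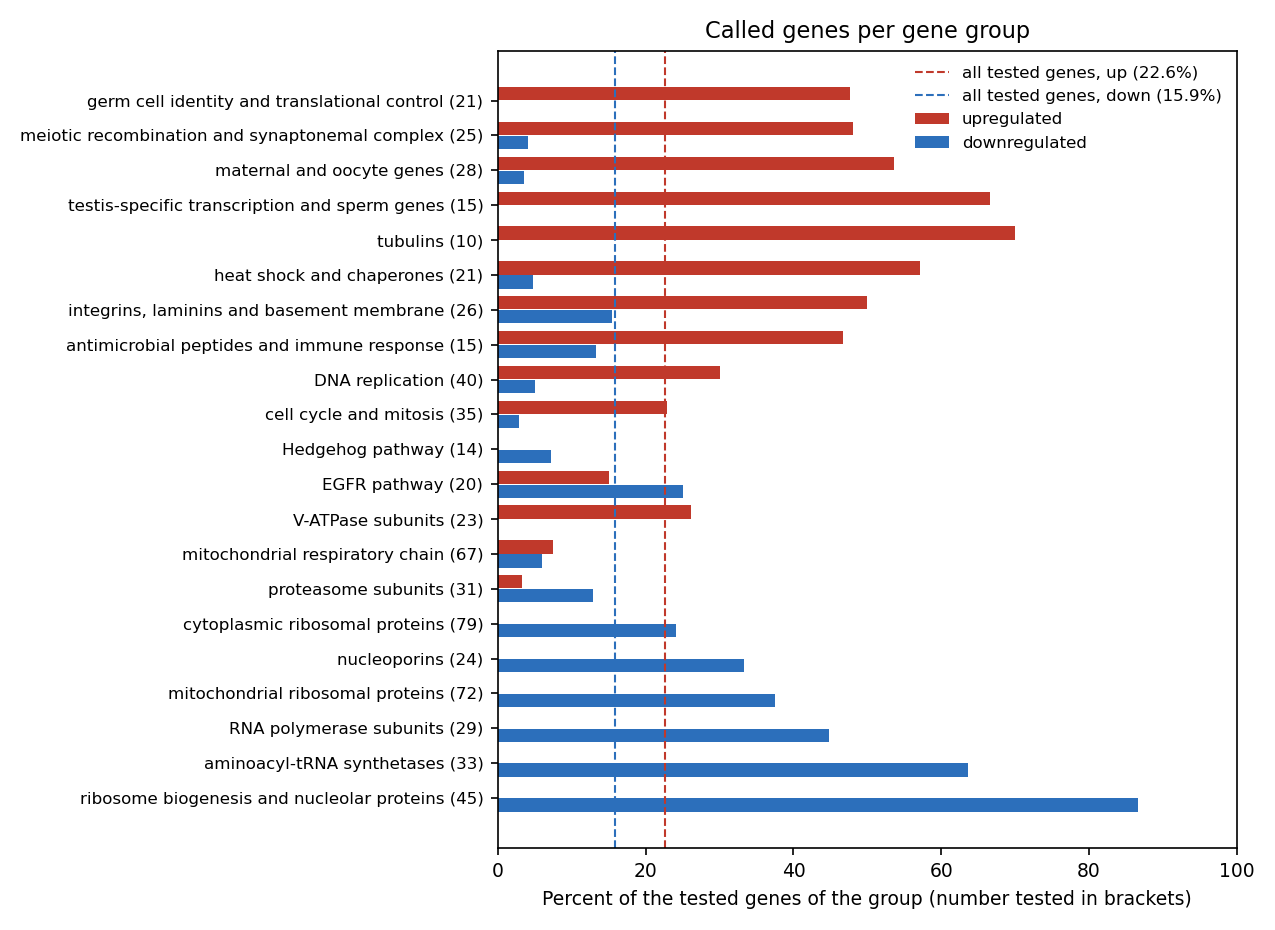
Bars give the percent of tested genes of each group that were upregulated or downregulated in L(3)mbt KD against control, and dashed lines the same shares over all genes tested (22.6% and 15.9%). Shares are over tested genes only, which for germline, oocyte and testis groups the filter on low counts helps to set, and the ribosomal protein, tRNA synthetase and ribosome biogenesis groups have no upregulated member (2 mitochondrial ones with library totals alone).

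Several testis-specific copies of housekeeping genes rose. Of 42 genes listed for testis-specific transcription and sperm, 15 were tested, 10 were upregulated (66.7%, against 22.6% of all genes tested) and none was downregulated, and 25 had at most 3 counts in every library. The filter on low counts helped to set this split. Of all tested genes under 1 CPM in control, 53.3% were upregulated and only 0.781% downregulated. With a minimum of 10 counts in every library, 8 of 10 testis genes were upregulated. *betaTub85D*, the testis beta-tubulin, had 0 counts in control and 15, 10 and 20 counts in L(3)mbt KD, at least 3.89-fold higher. *Rpt4R*, a testis copy of a proteasome ATPase, had 2, 0 and 1 counts in control and 14, 10 and 18 counts in L(3)mbt KD (ratio 13.3 (95% interval 4.24 to 67)), and *Prosbeta2R2*, another proteasome copy, rose 4.16-fold from 7.24 ± 0.386 to 30.01 ± 1.12 CPM. Of 31 tested genes of the general proteasome subunits, 1 was upregulated and 4 were downregulated (from 0 without L(3)mbt KD replicate 1 to 8 without its replicate 3). Among 67 genes of the mitochondrial respiratory chain tested, 5 were upregulated and 4 downregulated (from 1 without L(3)mbt KD replicate 2 to 7 without its replicate 3), and the 3 that rose most were the testis copies listed as *ms(3)72Dt* (10.4-fold, an ATP synthase beta copy), *CG10396* (8.3-fold, cytochrome c oxidase 4-like) and *CG18193* (7.17-fold, cytochrome c oxidase 7A-like). *ms(3)72Dt* had 0.227, 0.438 and 0.447 CPM in control and 4.7, 4.27 and 3.04 CPM in L(3)mbt KD. Of 23 V-ATPase subunit genes tested, 6 were upregulated (26.1%, near the 22.6% over all genes) and none downregulated (1 without replicate 3 of either condition). The largest increases were in copies that were almost silent in control. *VhaAC39-2* had 0 counts in control and 12, 16 and 21 counts in L(3)mbt KD (at least 4.31-fold higher), *VhaM9.7-a* 0, 1 and 2 and 88, 56 and 84 counts (ratio 72.1 (95% interval 24.4 to 352)), and *Vha16-5* 4, 3 and 0 and 56, 46 and 86 counts. *Ntf-2r*, a retrocopy of a nuclear transport gene, had 0, 0 and 2 counts in control and 212, 184 and 166 counts in L(3)mbt KD. *tomb*, of the testis meiotic arrest complex, rose 11.1-fold (98 exon bases shared with *Cap-D3*) and *TrxT*, a testis thioredoxin, 10.9-fold.

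Genes listed as germline-enriched copies of ribosomal protein genes were called in both directions, and most tubulin genes rose. Of 14 genes so listed, 9 were tested, 4 were upregulated (44.4%) and 2 downregulated (22.2%, or 4 genes without L(3)mbt KD replicate 3), with a median log2 fold change of -0.16. Over all genes tested, 22.6% were upregulated and 15.9% downregulated. *RpS5b*, the germline-enriched copy of ribosomal protein S5, had 85.1, 82.8 and 90.7 CPM in control and 961, 921 and 1026 CPM in L(3)mbt KD (11.2-fold, edgeR adjusted p = 8.65e-21). Its ubiquitous copy *RpS5a* had 3295, 3068 and 3494 CPM and 2987, 2898 and 3292 CPM, with overlapping libraries (log2 fold change -0.10, edgeR adjusted p = 0.18). *RpS19b* rose 2.15-fold and *RpS10a* 1.78-fold, whereas *RpL24-like* (-0.39, with 23 exon bases shared with a neighbour) and *RpL34a* (-0.22) fell. *RpL34a* lost its call in 4 of the alternative settings. Whether *RpL24-like*, listed by its name, is a germline-enriched copy was not examined, so that the decreases are no result about such copies. *Ef1alpha100E*, a tissue-restricted translation elongation factor, rose 8.33-fold from 3.46 ± 0.55 to 29.4 ± 4.02 CPM, while *Ef1alpha48D*, its widely used copy, fell (log2 fold change -0.26, from 13735 to 11456 CPM). Of 10 tubulin genes tested, 7 were upregulated and none was downregulated, with the largest changes in *gammaTub37C* (64.8-fold, from 0.284 ± 0.0947 to 19.6 ± 0.904 CPM), which is the maternal gamma-tubulin, *alphaTub85E* (39.5-fold) and *alphaTub67C* (17.6-fold), which is the maternal alpha-tubulin. *betaTub56D*, the main beta-tubulin, rose 1.24-fold and *alphaTub84B*, a main alpha-tubulin, was not called (log2 fold change 0.19, edgeR adjusted p = 0.0278). How reads shared by near-identical copies were treated is not stated, and values of such copies are uncertain to that extent.

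**Figure D3:**
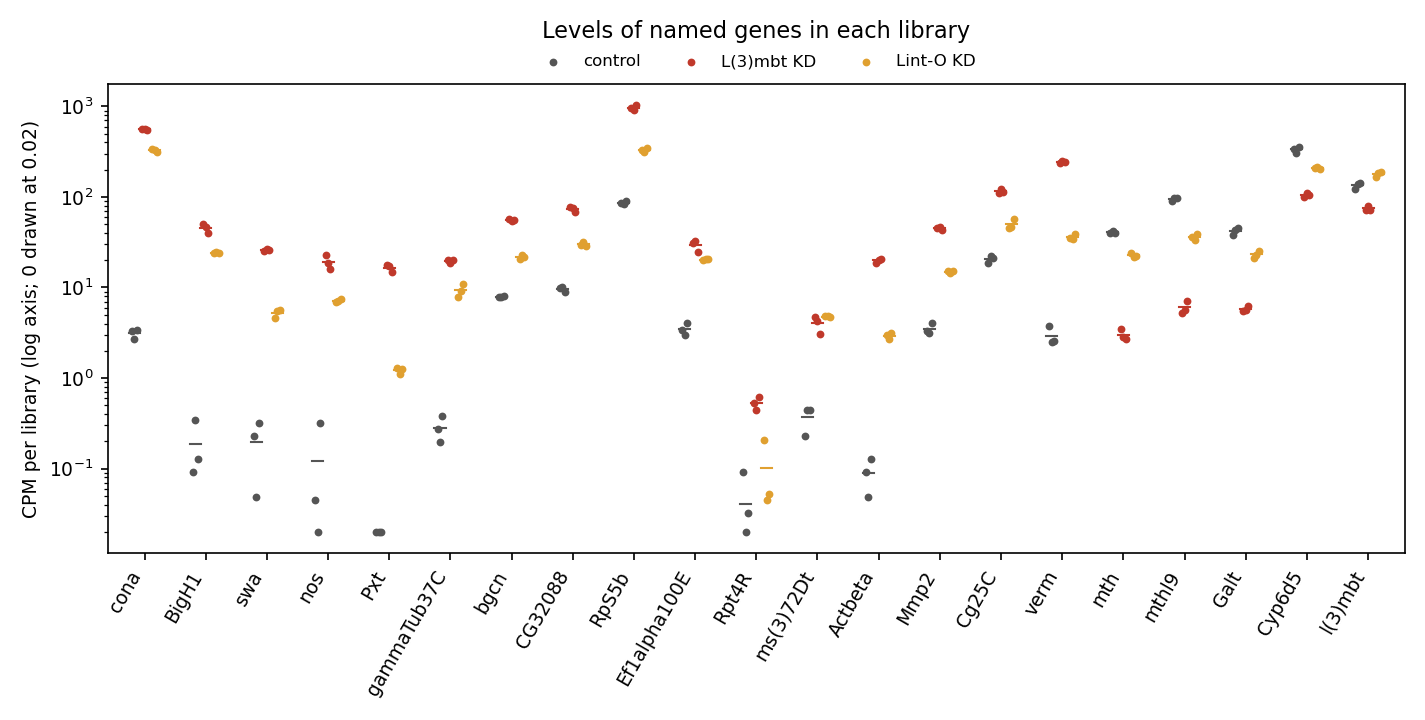
CPM of 21 genes in each of the 9 libraries on a log axis, with 0 drawn at 0.02 and short lines for the mean of 3 libraries. From *cona* to *verm* the L(3)mbt KD libraries lie above all control libraries, and from *mth* to *l(3)mbt* below them.

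Genes of the basement membrane and of cell surface signalling changed as well. Of 26 genes of integrins, laminins and basement membrane, all tested, 13 were upregulated (50%, against 22.6% of all genes tested). The 4 downregulated ones (15.4%) were near the 15.9% over all genes. Of those 4 only *Mmp1* (-0.34, with 284 exon bases shared with *Pof*) stayed called in every alternative without a fold minimum. *Mmp2*, a matrix metalloproteinase, had 3.27, 3.12 and 4.09 CPM in control and 45.3, 46.3 and 43.3 CPM in L(3)mbt KD (12.7-fold, edgeR adjusted p = 3.29e-18) and shares 287 exon bases with an antisense RNA. Both collagen IV chains rose, *Cg25C* 5.55-fold from 20.7 ± 1.88 to 115 ± 5.67 CPM and *vkg* 3.75-fold from 7.37 ± 0.352 to 27.6 ± 0.787 CPM. With them rose *Tig*, an integrin ligand (5.46-fold, with 157 exon bases shared with *CG13982*), *ItgalphaPS5* (3.51-fold) and *scb* (2.21-fold), both integrin alpha chains, *wb*, a laminin alpha chain (2.48-fold), and *Plod*, which hydroxylates collagen lysines (1.91-fold). *LanA*, the other laminin alpha chain, was not called (819, 746 and 839 CPM and 700.5, 776 and 744 CPM, edgeR adjusted p = 0.127). Hemocytes also express collagen IV, and the part of the hemocyte markers given above in these increases was not tested. Of 6 gap junction genes tested, 5 were upregulated (83.3%, against 22.6% of all genes tested), with *zpg* first and *Inx3* (2.73-fold, from 51.2 ± 4.69 to 139.8 ± 6.7 CPM) among them.

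In the signalling pathways single members changed. Over all genes tested, 22.6% were upregulated and 15.9% downregulated. These shares were 9.52% and 14.3% in the BMP and activin list, 33.3% and 11.1% for Wnt, and 15% and 25% for EGFR. *Actbeta*, an activin ligand, had 2, 1 and 4 counts in control and 490, 458 and 600 counts in L(3)mbt KD (199-fold, edgeR adjusted p = 6.44e-18), the largest change among 21 genes of the BMP and activin list tested, of which 2 were upregulated and 3 downregulated. Of 18 Wnt pathway genes tested, 6 were upregulated and 2 downregulated, with *Wnt4* (5.31-fold, from 0.797 ± 0.295 to 4.11 ± 0.568 CPM) and *Wnt2* (3.09-fold, from 16.4 ± 1.43 to 50.8 ± 2.51 CPM) first. Of 14 Hedgehog pathway genes none rose and 1 fell, *dally* (-0.23), which lost its call in 10 of the alternatives, and of 12 JAK/STAT genes 1 rose and 1 fell, the latter being *Stat92E* (log2 fold change -0.37, from 731, 803 and 706 CPM to 559, 575 and 595 CPM). Of 20 EGFR pathway genes tested, 3 were upregulated and 5 downregulated. Of its ligands, *vn* (-0.62) and *spi* (-0.38) were downregulated, *grk* (0.49, with 212 exon bases shared with a neighbour) was upregulated and *Krn* (0.08, with 289 exon bases shared with *Ndfip*) was not called (edgeR adjusted p = 0.642). Counts of decreases in these lists were highest without control replicate 3 (4 Hedgehog, 3 JAK/STAT, 6 BMP and activin, 4 Wnt and 8 EGFR genes), and without L(3)mbt KD replicate 1 they were 0, 1, 0, 1 and 3. In the Hippo list, 5 of 23 genes were upregulated (21.7%) and 3 downregulated (13%), near the shares over all genes. The largest increase in this list was that of *crb*, an apical polarity protein (4-fold, from 12.3 ± 0.904 to 49.3 ± 2.77 CPM). The target genes *th* (-0.11, edgeR adjusted p = 0.114) and *ex* (0.25, edgeR adjusted p = 0.185), which the study examined, were not called. Their exons overlap those of a neighbour by 347 and 448 bases. Targets did not all stay uncalled. *fj* and *CycE* were upregulated in every alternative without a fold minimum (log2 fold changes from 0.63 to 0.76 and from 0.33 to 0.48).

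Immune and stress genes were called in both directions, with more upregulated than downregulated and many not called. Of 15 immune genes tested, 7 were upregulated (46.7%) and 2 downregulated (13.3%, or 1 to 3 genes with 1 library left out). The shares over all genes tested were 22.6% and 15.9%. The peptidoglycan recognition genes *PGRP-SA* (11.5-fold, from 0.787 ± 0.512 to 8.98 ± 0.527 CPM) and *PGRP-SC2* (10.8-fold, from 0.812 ± 0.195 to 8.55 ± 0.39 CPM) and the NF-kappaB factor *Dif* (4.53-fold, from 1.78 ± 0.256 to 8 ± 0.397 CPM, with 252 exon bases shared with *CG15141*) rose, while its relative *dl* fell (-0.39). The gene listed as *CG1667* (*Sting*), a sensor in antiviral defence, had 30.2, 32 and 32.3 CPM in control and 421, 415 and 381 CPM in L(3)mbt KD (12.8-fold) and shares 55 exon bases with *Orc6*. Of 21 heat shock and chaperone genes tested, 12 were upregulated and 1 downregulated, including the small heat shock protein genes *Hsp67Bc* (8.11-fold, from 1.13 ± 0.353 to 9.36 ± 0.981 CPM) and *Hsp23* (1.75-fold, from 70.1 ± 5.95 to 123 ± 2.56 CPM). Of 18 apoptosis and p53 response genes, 7 rose and 1 fell. *p53* rose 1.81-fold, with 52.5, 50.5 and 53.7 CPM in control and 97.5, 91.5 and 94.5 CPM in L(3)mbt KD and 812 exon bases shared with an antisense RNA, and *debcl*, a Bcl-2 family gene, 2.71-fold, whereas the death inducer *rpr* was not called (0.13, edgeR adjusted p = 0.664). Changes in replication genes were small. Of 40 tested, 12 were upregulated (30%) and 2 downregulated (5%), led by *Mcm3*, of the replicative helicase (1.5-fold, with 64 exon bases shared with *CG3309*), and 7 were upregulated without control replicate 2.

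Decreases were shallow and gathered in genes that make ribosomes and charge tRNAs. Nucleolar proteins and ribosome biogenesis factors process ribosomal RNA and assemble the subunits. A list of 45 of them was drawn up after values of some were seen, so that its counts are a description only. All 45 had a log2 fold change below 0 (median -0.29, from -0.52 to -0.05), though that of *wcd* was 0.01 with library totals alone, 39 were downregulated, and their summed level was 8531, 8787 and 9221 CPM in control and 7185, 7117 and 7352 CPM in L(3)mbt KD. The gene listed as *CG4364*, the pescadillo homolog, had 471, 479.9 and 494 CPM in control and 341, 346 and 354 CPM in L(3)mbt KD (log2 fold change -0.47 ± 0.05 SE, edgeR adjusted p = 7.52e-08). *Nopp140*, a nucleolar phosphoprotein, had 323, 335 and 323 CPM and 243, 258 and 235 CPM (-0.41), and *ppan*, a factor of the large subunit, 55.5, 60.4 and 61.2 CPM and 42.9, 43.2 and 44.7 CPM (-0.44). In each of these 3 genes all L(3)mbt KD libraries lay below all control libraries, and exons of *Nopp140* and *ppan* overlap those of a neighbour by 21 and 43 bases. *Fib*, the methyltransferase fibrillarin, fell by less (-0.27, edgeR adjusted p = 0.00142), and *wcd*, a factor of the small subunit, was not called (-0.05, edgeR adjusted p = 0.535). The 39 downregulated genes became 31 when scaled by library totals alone, and from 32 to 41 with 1 library left out.

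Other groups of the translation machinery held more downregulated than upregulated genes. Over all genes tested, 15.9% were downregulated and 22.6% upregulated. Of 33 aminoacyl-tRNA synthetase genes, which couple amino acids to tRNAs, 21 were downregulated and none upregulated, with *Aats-ile* first (494, 507 and 502 CPM in control and 355, 330.3 and 333 CPM in L(3)mbt KD, log2 fold change -0.56, edgeR adjusted p = 9.47e-09). The median over the 33 genes was -0.28. Of 29 RNA polymerase subunit genes tested, 13 were downregulated and none upregulated, among them *RpI135*, a large subunit of RNA polymerase I (85.8, 90.5 and 98.9 CPM and 65.2, 65.2 and 63.8 CPM, -0.50). Of 72 mitochondrial ribosomal protein genes tested, 27 were downregulated and none upregulated (median -0.20), which became 15 downregulated and 2 upregulated with library totals alone, and 17 downregulated without L(3)mbt KD replicate 2. Of 79 cytoplasmic ribosomal protein genes, 78 had a log2 fold change below 0 (median -0.17), but only 19 were called (24.1%). This share was near the 24.7% downregulated among all tested genes above 300 CPM in control. The count of 19 ranged from 10 without L(3)mbt KD replicate 1 and 11 without replicate 2 to 40 without control replicate 2 and 51 without L(3)mbt KD replicate 3. *RpL5* was the most reduced of them (-0.38, from 3451 to 2654 CPM). *Thor*, an inhibitor of translation initiation, fell too (293, 279.8 and 302 CPM and 195, 214 and 183 CPM, -0.56). Of 24 nucleoporin genes 8 were downregulated (33.3%) and none upregulated (5 and 1 with library totals alone, 8 and 1 without control replicate 3). Respiratory chain genes had a median log2 fold change of -0.01 (-0.08 without L(3)mbt KD replicate 3). Whether the decreases depend on the level of the genes was not tested. With library totals alone the medians were -0.23 for ribosome biogenesis, -0.23 for synthetases, -0.13 for polymerase subunits, -0.14 for mitochondrial and -0.11 for cytoplasmic ribosomal proteins, and the median over all genes was 0.04.

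**Figure D4:**
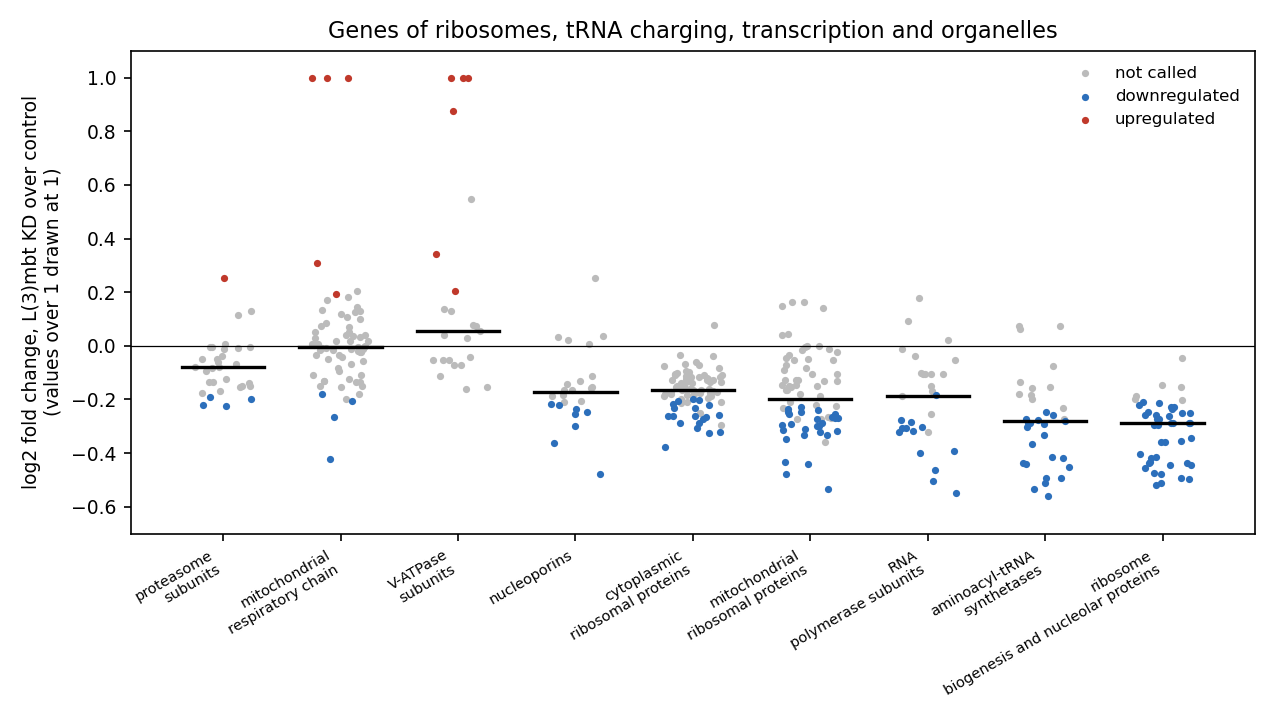
Each point is the log2 fold change of 1 tested gene in L(3)mbt KD over control, grouped by function, with black lines for medians and values over 1 drawn at 1. Medians go from -0.29 for ribosome biogenesis and -0.28 for aminoacyl-tRNA synthetases to -0.01 for the respiratory chain and 0.05 for V-ATPase subunits, whose upregulated points include the silent copies.

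A short sequence near the gene start was more frequent among downregulated genes than among the others. The window from 250 bases before to 50 bases after the annotated gene start was read from Release 6 of the genome (dm6, RefSeq) for 16581 genes. The palindrome CACGTG, an E-box that the Myc and Max proteins are known to bind, reads the same on both strands and was in 4.22% of these windows, in 9.76% of those of downregulated genes, in 3.15% of those of upregulated genes and in 3.60% of those of genes not called. Among ribosome biogenesis genes it was in 35 of 45 (77.8%), and 30 of these 35 were downregulated, as were 9 of the 10 without it. Of the 45, 7 had come to notice through the motif itself, and among the other 38 genes 28 had it (73.7%) and 32 were downregulated. Bases around the motif are shown for 5 downregulated genes of ribosome synthesis, 5′ to 3′ on the strand of the gene, with the motif in capitals.
RpI135 (chr2L:404302-404331, + strand): gattccaaacaaCACGTGcgaaggaaggca
ppan (chr3R:21116256-21116285, + strand): cactgatccataCACGTGcgggagaaaagt
CG9246, the Noc2 homolog (chr2L:21163632-21163661, + strand): cgttgaacagcaCACGTGcatttttgtttt
Nop56 (chr3R:22421023-22421052, - strand): acttgaagtaagCACGTGggaaaacaactg
Nopp140 (chr3L:21832780-21832809, + strand): ataagtagaaaaCACGTGtgagtgcgcatt
In these genes the motif began 30, 15, 4, 29 and 19 bases into the gene, in the order shown. Of the 35 ribosome biogenesis genes with the motif, 34 held it after the start.

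The share of genes called differed with the place of the motif, a split made after the values were seen. Among genes at 10 CPM or more in control, 59.7% of the 139 with an E-box after the start were downregulated and 2.16% upregulated. With the E-box only before the start these shares were 29.4% and 10.4% of 163 genes, and without it 19.5% and 14.1% of 5952 genes. The 139 genes include 34 of the ribosome biogenesis list, which was drawn up after values of some members were seen. Outside that list, 37.8% of the 267 genes with the motif at either place were downregulated and 7.49% upregulated. In 105 of these 267 genes the motif lay after the start, and their shares were not counted by place. Another E-box, the palindrome CAGCTG, was in 16.6% of all windows. Of the 1395 genes at this level that carried it, 28.4% were downregulated and 10.3% upregulated, against 18.4% and 14.8% of the 4859 without it. The transcript of *dm*, which encodes Myc, was not called (307, 294 and 210.2 CPM in control and 234, 253 and 189.6 CPM in L(3)mbt KD, log2 fold change -0.26, edgeR adjusted p = 0.319), and the libraries overlapped. Its exons overlap those of *CG12535* by 3754 bases. *Max*, its partner, was downregulated (36.2, 40.5 and 36.8 CPM and 29.3, 29.1 and 29 CPM, -0.38, edgeR adjusted p = 0.000329) and shares 206 exon bases with *Bet1*. A motif match is a description of the letters in the window, and binding was not examined.

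**Figure D5:**
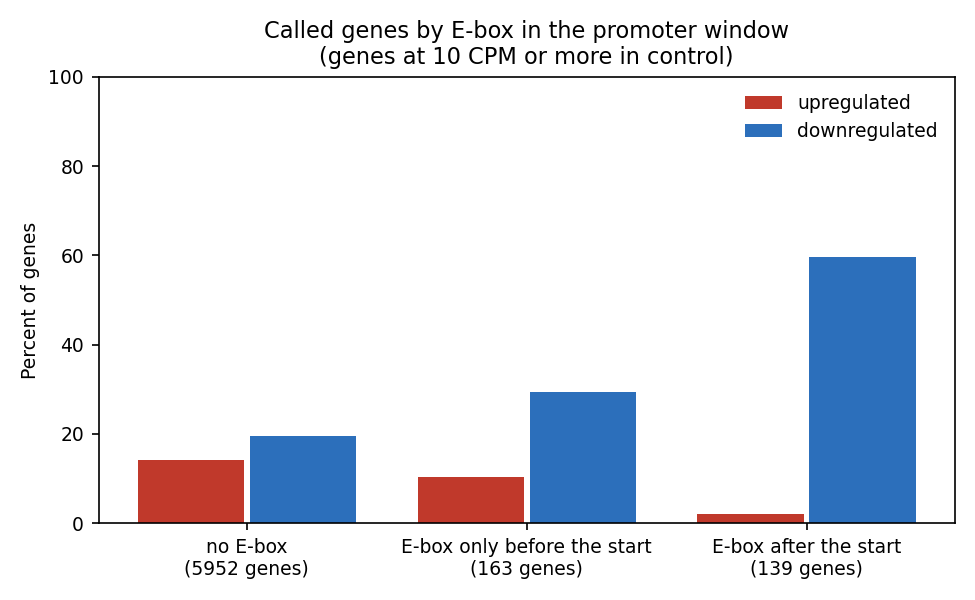
Bars give the percent of genes upregulated and downregulated in L(3)mbt KD, for genes at 10 CPM or more in control, by whether the window around the gene start holds the E-box. Downregulated genes make up 19.5% without it, 29.4% with it only before the start and 59.7% with it after the start. The last group includes 34 genes of the ribosome biogenesis list, and both this list and the split by place were made after values were seen.

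Decreases of at least 2-fold were few, and none was in the groups of ribosome synthesis and translation above. *mthl9* and *mth*, receptors of the methuselah family, went from 91.3, 96.1 and 98.1 to 5.2, 5.68 and 7.15 CPM and from 40.2, 42.2 and 40.03 to 3.44, 2.82 and 2.7 CPM, to 6.31% and 7.31% of control (edgeR adjusted p = 1.30e-18 and 2.15e-18). Another member, *mthl7*, rose 133-fold from 3, 1 and 0 to 216, 184 and 214 counts, and of 11 methuselah genes tested 5 were upregulated and 3 downregulated. *Galt*, of galactose metabolism, fell from 42 ± 3.55 to 5.77 ± 0.458 CPM (13.7% of control), and *Cyp6d5*, a cytochrome P450, from 339.8, 309 and 359 to 98.6, 110.2 and 104 CPM (31.1% of control). In neither gene did the libraries overlap. Of 50 P450 genes tested, 13 were upregulated (26%) and 9 downregulated (18%), near the shares over all genes (22.6% and 15.9%). *Fas2*, a cell adhesion molecule, fell to 54% of control (217.8, 204 and 194 CPM and 111, 115 and 106 CPM), *Argk*, arginine kinase, to 49.9% (1020.1, 962 and 1152 CPM and 507, 501 and 557 CPM), and *Fer1HCH*, a ferritin subunit, to 64.1%, where it shares 118 exon bases with the other subunit gene, *Fer2LCH*. These genes were among the more abundant ones that fell. *eg*, a nuclear receptor gene, went from 61, 49 and 66 to 11, 11 and 3 counts.

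The called genes lay on all chromosome arms given. Upregulated genes made up between 21.8% and 23.5% of tested genes on 2L, 2R, 3L, 3R and X, and 33.3% of 87 genes on chromosome 4. Downregulated genes made up 16.9% to 17.1% on the 4 autosomal arms, 11.6% of 1529 genes on X and 4.60% of those on chromosome 4. Among genes at 10 CPM or more in control, the downregulated share was 14.1% of 1107 genes on X, 5.56% of 54 genes on chromosome 4 and 22.1% to 22.4% on the other arms, and these shares were not tested against each other.

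The L(3)mbt KD also differed from the Lint-O KD, in which *l(3)mbt* itself had 164, 183 and 188 CPM. Across all genes tested, 806 were higher in L(3)mbt KD (9.24%) and 596 lower (6.83%) in edgeR at the same threshold. Among the 21 germ cell genes 9 were higher in L(3)mbt KD and none lower, among the 28 maternal genes 9 and none, among the 10 tubulins 6 and none, and among the 26 basement membrane genes 10 and 3. *RpS5b* had 331, 313 and 346 CPM in Lint-O KD (log2 difference 1.55 between L(3)mbt KD and Lint-O KD, edgeR adjusted p = 2.86e-14), *cona* 337, 327 and 314 CPM (0.77, edgeR adjusted p = 7.01e-10) and *Pxt* 1.28, 1.12 and 1.26 CPM (3.76, edgeR adjusted p = 1.04e-12). In each of these genes the L(3)mbt KD libraries lay above the Lint-O KD libraries. The testis copies *ms(3)72Dt*, *CG10396* and *CG18193* were not called between the knockdowns (log2 differences -0.26, 0.07 and -0.23), with 4.79, 4.78 and 4.74 CPM in Lint-O KD for *ms(3)72Dt*. *mth* was lower in L(3)mbt KD than in Lint-O KD, where it had 24.1, 21.9 and 22.4 CPM (-2.93, edgeR adjusted p = 6.79e-15). None of the 45 ribosome biogenesis genes was called between the knockdowns (median log2 difference -0.03), and their summed level was 7204, 7190 and 7388 CPM in Lint-O KD. A missed threshold does not show that the levels were equal. Of the 33 aminoacyl-tRNA synthetases, 6 were lower in L(3)mbt KD than in Lint-O KD and none was higher.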

How the data were processed

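Poly-A RNA of OSCs was sequenced 48 h after siRNA transfection. The authors deposited 1 table of raw read counts per gene for 9 libraries. Per the labels, HISAT2 and HTSeq were used with the dm6 genome, and versions, annotation, strand setting and treatment of multimapping reads are not given in the sources used here. The 5 summary rows were left out of totals and tests (reads outside genes 2.76% to 8.45%, ambiguous reads 1.47% to 1.61%).

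Counts were tested with the quasi-likelihood test of edgeR 4.0.16 in R 4.3.3 (TMM scaling, filterByExpr, robust prior spread, all 9 libraries, adjusted p under 0.01). CPM were computed with the same scaling, which divides by the reads on genes (19139572 to 32274601 per library). The study itself used DESeq2, run here (1.42.0) as an alternative beside other scalings, filters, thresholds, fits and left-out libraries. On simulated data for 8726 genes with 200 changed by 1 on the log2 scale, edgeR recovered 87% with 3 false calls and DESeq2 84% with 2. Smaller changes were not simulated, so that these rates do not cover the shallow decreases (median log2 fold change -0.33).

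Genes are named as the table lists them, and 99.1% matched RefSeq by symbol or synonym. Named genes were, in each list, up to 4 called genes per direction with the largest change and defining members not called, and outside the lists the 20 genes per direction with the largest change (mean of 10 counts or more, libraries not overlapping), the 10 with the largest gain or loss of CPM, and *l(3)mbt*. Further members and genes, such as *bgcn*, *bam* and *Max*, were named after their values were seen. Members and lists were chosen with earlier results of these data known. For genes at 0 counts in control a floor of 3 counts per library was used, and for 1 to 3 counts in all a ratio with an exact binomial 95% interval, which cover counting error only. With 3 against 3 libraries, an exact permutation test cannot go below p = 0.1 (two-sided).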

Additional observations from a re-analysis of the deposited data

How the results depend on the processing

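No called gene was called in the other direction under any alternative tried, and between 76.2% and 100% of called genes kept their call, except where changes under 1 on the log2 scale were not called, with 1091 increases and 78 decreases. With 1 library left out, 1750 to 1858 genes were upregulated and 1027 to 1596 downregulated. DESeq2 called 1986 and 1400 genes, no filter on low counts 2014 and 1930, and an adjusted p under 0.05 2355 and 2063. With the Lint-O KD libraries left out of the fit, 1879 genes were upregulated and 1258 downregulated. Of 383 called genes named or listed for naming, 295 were tested in every setting without a fold minimum and 227 of these passed the threshold in all, while the others include low genes that a minimum of 10 counts leaves untested. Genes that were not called gave a change of sign for *rpr* (log2 fold changes from -0.0627 without control replicate 1 to 0.329 without control replicate 3) and *wcd* (0.00998 with library totals alone). Of cytoplasmic ribosomal protein genes, 13 were downregulated under library totals alone, 32 in DESeq2 and 46 without a filter, and of proteasome subunit genes 0, 5 and 9. For the comparison with Lint-O KD the alternatives gave 836 to 910 genes higher and 463 to 649 lower. The cause of these shifts was not tested. Whether replicate numbers pair the samples was not settled. Deviations of libraries with the same number were correlated at -0.19, -0.12 and -0.21. With 3 libraries per condition these values cannot exclude pairing. A replicate block in the design gave 2005 increases and 1573 decreases, against 1973 and 1391 without it. With the block, 54 cytoplasmic ribosomal protein genes were downregulated, against 19 without it. Depth limits genes with few counts, whose calls are lost first under a minimum of 10 counts in every library (1588 and 1088 called genes).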
